A study of Mus musculus with 21 samples.

Results

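Oxidative phosphorylation runs on complexes whose subunits come from 2 genomes. The set described here holds 97 genes of the 17516 gene symbols in the tables: 84 encoded in the nucleus and 13 in mitochondrial DNA, taken by symbol (Nduf, Sdh, Uqcr, Cyc1, Cox4 to Cox8 and Atp5 subunit names, and every symbol that starts with mt-). The choice used symbols, not levels. By complex, the nuclear members are 37 of complex I, 4 of complex II, 9 of complex III, 17 of complex IV and 17 of complex V. The mitochondrial members are 7 of complex I, 1 of complex III, 3 of complex IV and 2 of complex V.

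The respiratory chain passes electrons from NADH through complex I, or from succinate through complex II, to complex III, cytochrome c and complex IV, and complex V (ATP synthase) uses the proton gradient that the chain builds. Mitochondrial DNA is copied into long transcripts from both strands that are cut into messengers, so its genes share their transcription. Nuclear subunits are transcribed from separate sites, and their proteins are imported. Resting T cells rely largely on respiration, and activated CD8 T cells raise both glycolysis and mitochondrial mass as they grow and divide.

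The samples were OT1 CD8 T cells of the mouse, which carry a transgenic T cell receptor, read as single cells in 21 libraries, 1 per condition. Naive cells were taken at day 0. The others had been activated with beads coated with anti-CD3 and anti-CD28 antibodies and were taken at day 3 or day 5 without cytokine, or at day 3, 5 or 10 with IL-2, IL-2v or IL-15, each at 5 or 50 IU/mL. The treatment field calls IL-2v mutant IL-2bg. All 21 groups share the same cell line and all but the naive group share the bead activation. For 6 libraries, all 3 of IL-2 at 50 IU/mL and all 3 of IL-15 at 50 IU/mL, the treatment field names another cytokine (interleukin-3 and interleukin-16) than the title does. Their groups were taken from the titles, so every value given for these 2 conditions rests on the titles. The extraction protocol describes sorted CD44+CD45.1+CD8+ tumour-infiltrating cells, whereas the growth protocol describes culture; no label settles which text holds for a library. The age of the mice is not given in the sources used here.

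Each library held 3250 to 7105 cells, 10589950 to 32648496 UMIs (counted RNA molecules) and a median of 3016 to 5065 UMIs per cell. Transcripts of 6 T cell markers summed to 2238 to 5519 CPM (UMI counts scaled to an equal total per library), Cd4 to 0 to 4.39 CPM, 4 B cell markers to 1.54 to 17.8 CPM and 5 myeloid markers to 63.7 to 130 CPM. Nearly all of the myeloid sum was Cst3 (61.0 to 126 CPM), while Lyz2 and Csf1r were at 0 in 20 of 21 libraries, as was Ms4a1 of the B cell markers. Library pairs shared 1 to 19 cell barcodes, at most 0.340% of the smaller library. With 1 library per condition there is no replicate, and no test was made; an additive fit over cytokine, dose and day, with their interactions as the error, was not run. Pairs of libraries that differ in day, dose or cytokine are given side by side. In the counts that follow, a gene was assessed where it averaged at least 20 CPM in either arm. It was called higher or lower where all pairs had the same sign and the median difference of log2(CPM + 1) was at least 0.58, which is 1.5-fold. The median of a gene list in a pair was taken over its members with at least 1 CPM. All intervals cover counting error only. Naive cells are 1 library, and where they lie outside the range of later libraries, the share of all genes that do so was not counted. In summed counts, fewer cells of a kind and less RNA per cell cannot be told apart.

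The nuclear members are transcribed from separate sites, though a promoter region can be shared with a neighbouring gene. Gm26631, which lies opposite Cox5a, is annotated as a bidirectional promoter transcript. Among the nuclear members that lead the results on activation and on IL-2 dose, the upstream windows that carried a motif of factors known for these genes are printed here. Windows of 250 bases before the transcript start were found in RefSeq (GRCm38.p6) for 68 of the 84 nuclear members. The NRF1 motif (GCGCA followed by its reverse complement TGCGC) was in 4 of the 68 (5.88%, against 1.64% of 12470 genes), the ETS motif CCGGAAG in 12 (17.6%, against 14%) and the YY1 motif ATGGCGG in 4 (5.88%, against 4.15%), counting both strands. Any of the 3 was in 18 of the 68 (26.5%, against 18.6%). Of the 10 leading members, 9 had a window and 3 of these held a motif, and it stands in capitals below, with CTTCCGG as the other strand of CCGGAAG. All 3 windows are read 5′ to 3′ on the minus strand: Sdhd at chr9:50603850-50604099, Uqcrh at chr4:116075071-116075320 and Cox6a1 at chr5:115348959-115349208. A match is a run of letters and was not tested as a binding site.
Sdhd: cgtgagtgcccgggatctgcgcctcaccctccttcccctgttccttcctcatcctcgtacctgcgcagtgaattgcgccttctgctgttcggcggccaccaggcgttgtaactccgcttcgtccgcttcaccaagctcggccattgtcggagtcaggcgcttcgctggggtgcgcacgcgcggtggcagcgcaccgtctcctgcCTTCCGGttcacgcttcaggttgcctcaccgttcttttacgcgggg
Uqcrh: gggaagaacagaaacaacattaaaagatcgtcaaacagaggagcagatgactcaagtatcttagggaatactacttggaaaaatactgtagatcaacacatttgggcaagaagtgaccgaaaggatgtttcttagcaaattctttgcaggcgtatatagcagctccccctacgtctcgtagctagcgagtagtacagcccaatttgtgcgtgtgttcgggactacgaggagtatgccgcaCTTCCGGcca
Cox6a1: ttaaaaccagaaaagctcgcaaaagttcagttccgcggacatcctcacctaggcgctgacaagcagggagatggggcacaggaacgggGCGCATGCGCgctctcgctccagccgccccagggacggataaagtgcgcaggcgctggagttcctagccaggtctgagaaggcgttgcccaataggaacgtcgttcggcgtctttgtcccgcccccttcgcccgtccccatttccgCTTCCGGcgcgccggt

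Mitochondrial genes, by contrast, sit end to end. The genes of 2 ATP synthase subunits, mt-Atp8 and mt-Atp6, share 43 bases at chrM:7927-7969 on the plus strand (GRCm38), shown because UMIs that fall there fit both genes. The capitals mark the start codon of mt-Atp6 and the last 3 bases of mt-Atp8.
mt-Atp8 and mt-Atp6: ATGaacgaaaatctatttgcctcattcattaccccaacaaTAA
mt-Nd6 is the one member on the minus strand of mitochondrial DNA (chrM:13552-14070), and 14 of its bases lie opposite mt-Nd5. Whether the authors' counting used strand is not given in the sources used here, so values of mt-Atp8 and mt-Nd6 are uncertain to that extent. mt-Nd4l shares 7 bases with mt-Nd4. Where mt-Atp8 or mt-Nd4l is called higher or lower below, how UMIs were divided with mt-Atp6 or mt-Nd4 was not tested. Among nuclear members, Atp5o is the symbol of 2 overlapping gene entries, 1 of which shares exons with Donson on the same strand, and 30.0% of Ndufa13 and 39.0% of Ndufb6 lie opposite another gene. Near-identical copies of protein-coding transcripts (at least 95% identity over at least 100 bases) were found in the genome annotation for 16 of the 84 nuclear and 8 of the 13 mitochondrial members. Reads of these genes may have been split or dropped. By symbol 83 nuclear members were in that annotation, and Atp5md, which was not, could not be searched.

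The nuclear members took 1.70% of all UMIs in naive cells and 1.73% to 2.45% in the other 20 libraries, with a median of 2.12% over all 21. The mitochondrial members took 2.91% to 4.85%, with a median of 4.17% and 4.25% in naive cells. The lowest mitochondrial shares were those of IL-2 at 50 IU/mL, 3.37% at day 3 and 2.91% at day 5; all other libraries lay at 3.52% or above. The ratio of mitochondrial to nuclear UMIs was 2.51 in naive cells and in IL-15 at 50 IU/mL, day 5, and lowest, 1.45, in IL-2 at 50 IU/mL, day 3. Both shares lay above their medians in 7 libraries and neither did in 8, while 3 libraries were above for nuclear members alone and 3 for mitochondrial members alone.

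**Figure D1:**
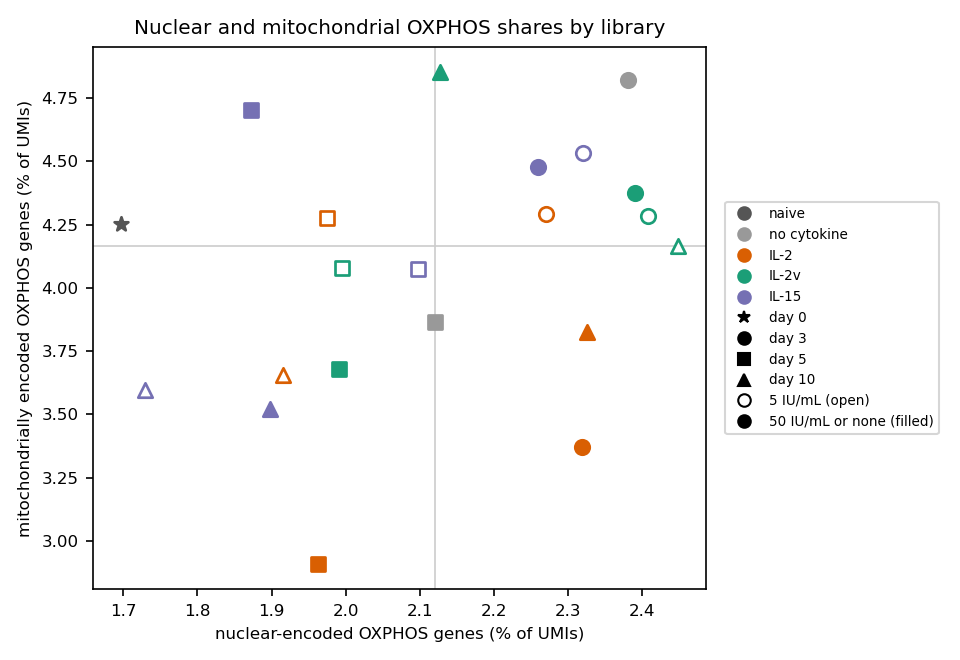
Share of all UMIs taken by the 84 nuclear members (x axis, percent) and the 13 mitochondrial members (y axis, percent) in each of the 21 libraries; colour gives the cytokine, marker shape the day, open markers 5 IU/mL and filled markers 50 IU/mL or no cytokine, and grey lines the medians of 2.12% and 4.17%. Naive cells sit at the left edge with 1.70% and 4.25%, and IL-2 at 50 IU/mL, days 3 and 5, lies lowest with 3.37% and 2.91% mitochondrial.

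The tables look limited to barcodes with at most about 10% mitochondrial UMIs: the highest value of any barcode was 9.21% to 10.00% across libraries. The share of cells above 5% was 18.1% in naive cells, 45.0% without cytokine at day 3, 17.8% in IL-2 at 50 IU/mL, day 3, and 9.51% in IL-2 at 50 IU/mL, day 5. How much such a limit moved the mitochondrial shares was not tested beyond the repeat on cells with at most 5%, given where it changes a direction.

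Which members rose as naive cells became activated? Between naive cells and day 3 without cytokine, nuclear members were higher as a group: 71 of the 79 assessed had a positive difference, as had 43.8% of 6171 genes. By the 1.5-fold rule 30 rose and 0 fell, against 19.6% of genes called higher and 23.2% called lower. Their median log2 difference was 0.49, while the median of all genes assessed was -0.11. All 5 complexes had members that rose. Complex I had 12 of 37 (median 0.43), complex II 3 of 4 (0.78), complex III 3 of 9 (0.48), complex IV 7 of 12 (0.65) and complex V 5 of 17 (0.53). The difference kept its sign at 0.43 to 0.56 under every alternative scaling and choice of cells that was run. Between the same libraries the T cell markers summed to 4514 and 3902 CPM, the myeloid list to 63.7 and 122 CPM (Cst3 61.0 and 117 CPM) and the cycling markers Mki67 and Top2a to 37.6 and 960 CPM, in naive cells and at day 3; in non-cycling cells the nuclear median was 0.43, and the part of the other markers was not tested.

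Ndufv3, an accessory subunit of the NADH-binding arm of complex I (chromosome 17, 31520115 to 31531331, plus strand), had the largest increase among the 79 nuclear members assessed. It measured 176 CPM in naive cells and 488 to 669 CPM (median 537) in the 7 libraries of day 3, so naive cells lay below all of them, and its log2 difference without cytokine was 1.46. Atp5d, the delta subunit of the ATP synthase head, went from 238 CPM to 543 to 634 CPM (median 570), a log2 difference of 1.18 without cytokine. Naive cells were again apart from all 7 day 3 libraries, a separation whose share over all genes was not counted. Sdhd, a membrane anchor of complex II whose window is printed above, measured 51.8 CPM in naive cells and 83.8 to 107 CPM (median 91.3) at day 3, with a log2 difference of 1.03. The other anchor, Sdhc, went from 39.7 CPM to 72.1 to 78.8 CPM (0.85), and Sdhb, the iron-sulfur subunit, from 86.7 to 142 to 170 CPM (0.71). The flavoprotein Sdha differed from its partners: 116 CPM in naive cells lay above the 96.4 to 113 CPM of day 3.

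The members with the lowest differences were Ndufa4, a subunit associated with complex IV despite its name (-0.48), Atp5g1, a gene for the c-ring subunit of ATP synthase (-0.45), and Ndufb4, an accessory complex I subunit (-0.44), none of them past the 1.5-fold rule. Ndufa4 was at 369 CPM in naive cells, above all other 20 libraries: 213 to 265 CPM at day 3, 118 to 283 CPM at day 5 and 85.0 to 297 CPM at day 10. The c-ring subunit is encoded by 3 genes whose mature proteins are identical, and they did not move as one. Atp5g1 went from 215 CPM to 157 to 271 CPM at day 3, while Atp5g2 went from 474 to 685 to 789 CPM and Atp5g3 from 188 to 272 to 379 CPM. For Atp5g2 and Atp5g3 naive cells lay below all 7 day 3 libraries, and for Atp5g1 they lay within their range. How many of all genes part naive cells from later libraries was not counted.

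**Figure D2:**
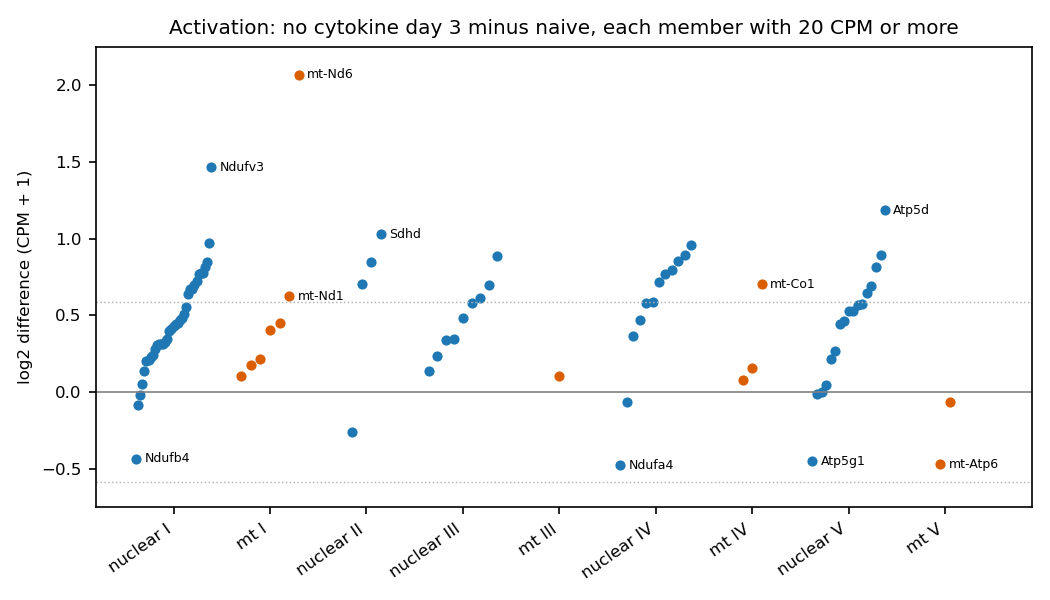
Log2 difference of CPM + 1 between day 3 without cytokine and naive cells (axis, log2), 1 point per member that averaged 20 CPM or more in either arm, grouped by complex, with nuclear members in blue and mitochondrial members in orange; dotted lines mark 1.5-fold. Most blue points lie above 0, with Ndufv3 at 1.46 the highest of them, and mt-Nd6 at 2.07 stands above all other members plotted.

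The mitochondrial members were less uniform in the same comparison. Their median log2 difference was 0.17, and 11 of 13 were positive, where 43.8% of genes were, but 3 rose by the 1.5-fold rule (mt-Nd6 2.07, mt-Co1 0.70, mt-Nd1 0.62) and 0 fell. mt-Atp6, a proton-channel subunit of ATP synthase, had the lowest value (-0.47). With cells of at most 5% mitochondrial UMIs the median turned to -0.11, with mitochondrial shares of 3.70% without cytokine and 3.93% in naive cells. This limit cuts on the mitochondrial share itself: 45.0% of cells without cytokine and 18.1% of naive cells lay above it. Every other alternative that was run kept the median positive. The direction of mt-Nd6, mt-Co1 and mt-Nd1 did not depend on which cells were kept.

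The genes that build or feed the chain are given beside the same background, 19.6% of genes called higher and 23.2% lower. Of the mitochondrial ribosome, which makes the 13 mitochondrial proteins, 21 of 71 assessed genes rose and 1 fell (median 0.31). Electron and metabolite carriers, such as cytochrome c and the ADP/ATP carriers, had 2 of 9 higher and 0 lower (0.54), and the 7 nuclear core subunits of complex I, themselves members, had 2 higher and 0 lower. For the TCA cycle with pyruvate dehydrogenase 4 of 16 rose and 1 fell (0.14). Complex I assembly factors had 1 of 6 higher and 1 lower, assembly factors of complexes II to V had 2 of 18 higher and 3 lower, genes of mitochondrial DNA and RNA upkeep had 1 of 12 higher and 3 lower (-0.39), and regulators of the nuclear genes had 2 of 7 higher and 2 lower.

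Without cytokine, the nuclear median was lower at day 5 than at day 3 (-0.18). Against day 3, 8 nuclear members fell (18.3% of 5785 genes were called lower) and 1, Uqcrh, rose (12.5% called higher). The 8 were Ndufv3 (-1.16), Sdhc (-0.85), Atp5b (-0.79), Atp5a1, Atp5k, Cox7a2, Cox7c and Ndufv1. Atp5a1 and Atp5b encode the alpha and beta subunits of the catalytic head of ATP synthase. Of the mitochondrial members 4 fell and 0 rose: mt-Nd6 (-2.13), mt-Nd1 (-1.14), mt-Nd3 (-0.97) and mt-Nd4l (-0.65), all subunits of complex I, with a median of -0.40. Both medians kept their sign under every alternative that was run, but not their size: the nuclear median was -0.0724 with TMM scaling, and the mitochondrial median -0.16 in cells with at most 5% mitochondrial UMIs. Between these libraries the cycling markers went from 960 to 140 CPM, the T cell markers from 3902 to 5519 CPM and the myeloid list from 122 to 93.0 CPM. In non-cycling cells the medians were -0.12 and -0.43; the part of the other markers was not tested.

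With cytokine at day 3, the nuclear members were near their level without it. The 6 cytokine libraries share 1 control library, so their differences are not independent. The nuclear medians lay between -0.03 and 0.04, and the mitochondrial medians were below 0 in 6 of 6 pairs, from -0.49 with IL-2 at 50 IU/mL to -0.08. Under TMM scaling the nuclear medians were below 0 in 6 of 6, and 1 of 6 mitochondrial medians was above 0 when cells were limited to 5% mitochondrial UMIs or to non-cycling cells. At 5 IU/mL no member was called in any direction with IL-2, IL-2v or IL-15, where 1.15%, 2.92% and 1.42% of genes were called higher and 0.266%, 0.599% and 0.623% lower. With IL-15 at 50 IU/mL it was also none, beside 5.35% and 0.959%. IL-2v at 50 IU/mL called 5 nuclear members higher and 1 lower, and 1 mitochondrial member lower, beside 22.4% and 6.48%. These were Uqcrq (1.01), Ndufa12 (0.80), Atp5g1 (0.78), Cyc1 (0.65) and Ndufab1 (0.61), then Uqcrh (-0.63) and mt-Cytb (-0.59). In IL-2 at 50 IU/mL, 5 mitochondrial members fell, against 7.48% of 6030 genes: mt-Cytb (-0.91), mt-Atp6 (-0.76), mt-Nd3 (-0.76), mt-Co3 (-0.74) and mt-Nd4 (-0.62). In the same pair 5 nuclear members rose, against 20% of genes, and 1 fell. Those that rose included 3 of complex III, Uqcrq (0.85), Cyc1 (0.63) and Uqcrc1 (0.60), with Ndufa12 (0.80) and Atp5b (0.61). Uqcrh, the hinge protein of the same complex, fell (-0.72).

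By day 5 the mitochondrial medians were at or above those without cytokine in 6 of 6 pairs (0.00 to 0.72) and the nuclear medians below in 6 of 6 (-0.21 to -0.04). The share of UMIs, which the most abundant genes set, did not always follow: against 3.86% without cytokine it was 2.91% with IL-2 and 3.68% with IL-2v at 50 IU/mL, both lower, and 4.07% to 4.70% in the other 4 libraries. IL-2v at 5 IU/mL, with the highest median (0.72), differed in share by 0.08 on the log2 scale. These signs partly rest on the scaling: with TMM 4 of 6 mitochondrial medians stayed above 0 and 1 nuclear median turned positive. The cycling markers summed to 140 CPM without cytokine and 324 to 1615 CPM with it at day 5. The T cell markers summed to 5519 and 2952 to 4339 CPM, and the myeloid list to 93.0 and 75.9 to 130 CPM. The part of the T cell and myeloid markers was not tested. With IL-15 at 50 IU/mL all 13 mitochondrial members were above the control and 7 rose, against 15.1% of 5673 genes: mt-Nd6 (1.98), mt-Nd3 (1.27), mt-Nd1 (1.03), mt-Atp8 (0.96), mt-Nd5 (0.90), mt-Nd4l (0.76) and mt-Nd2 (0.70). In that pair, 1 nuclear member, Ndufv3 (0.59), rose and 5 fell, against 8.83% of genes, with Ndufa4 lowest (-1.03). IL-2v at 5 IU/mL called the same 7 mitochondrial members higher, against 20.8% of 5869 genes, with 2 nuclear members higher and 1, Ndufa4, lower (8.89% of genes lower). IL-2v at 50 IU/mL called 4 mitochondrial members higher, mt-Nd6 (2.62), mt-Nd1 (0.96), mt-Nd5 (0.66) and mt-Nd3 (0.62), where 35.9% of genes were called higher, with 6 nuclear members higher and 8 lower (13% of genes lower). At 5 IU/mL, IL-2 called 4 mitochondrial members higher and 2 nuclear members lower, beside 4.56% and 3.41% of genes, and IL-15 called 3 mitochondrial members higher and 0 members lower, beside 3.78% and 3.25%. mt-Nd6 was called higher in all 6 pairs. Without cytokine it was at 31.6 CPM at day 5, below the 6 cytokine libraries of that day and near the 33.0 CPM of naive cells.

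IL-2 at 50 IU/mL split the mitochondrial members at day 5. mt-Nd6 (2.97) and mt-Nd5 (0.63) rose, where 28.4% of 6022 genes were called higher, and mt-Co3 (-0.91), mt-Cytb (-0.90), mt-Nd4 (-0.89) and mt-Atp6 (-0.86) fell, where 18.5% were called lower. Of the nuclear members 2 rose, Ndufv3 (1.60) and Atp5b (0.68), and 11 fell, with Ndufa4 (-1.26), Ndufb4 (-1.22) and Uqcrh (-0.99) lowest. All 6 assessed complex I assembly factors fell in this pair (median -0.79), and so did 8 of 17 assembly factors of complexes II to V and 20 of 73 mitochondrial ribosome genes.

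**Figure D3:**
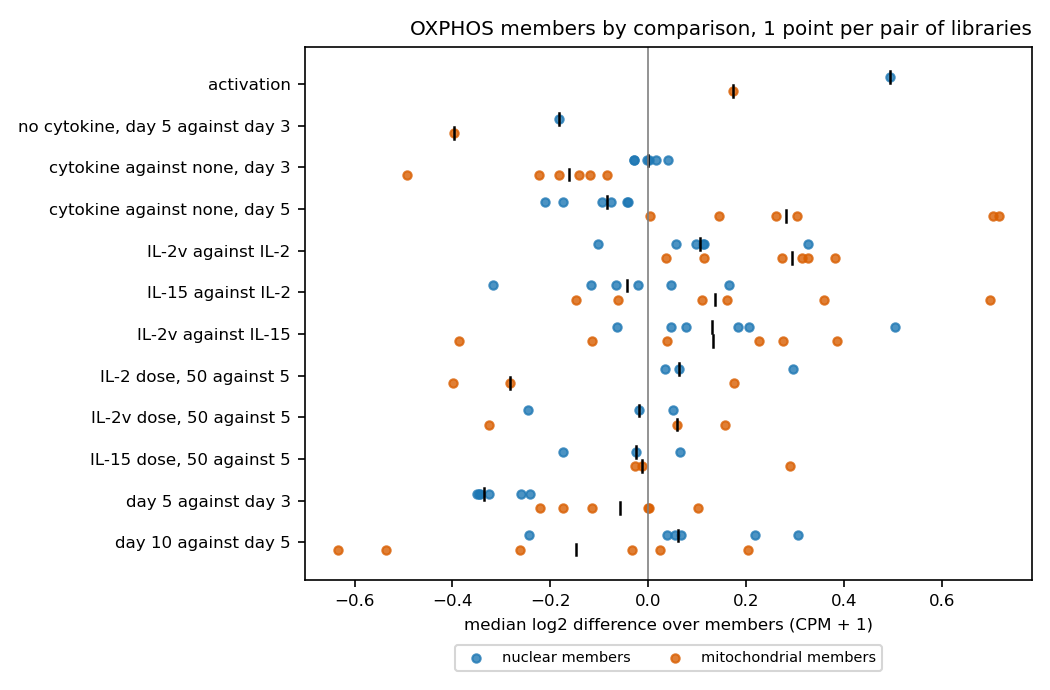
Median log2 difference of nuclear (blue) and mitochondrial (orange) members in 12 comparisons (x axis, log2), 1 point per library pair and a black tick at the median of the pairs. The nuclear medians are 0.49 for activation and -0.33 for day 5 against day 3, and the mitochondrial points run from 0.00 to 0.72 for cytokine against none at day 5.

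How did the 3 cytokines differ at equal day and dose? IL-2v against IL-2 gave a mitochondrial median of 0.29 (0.04 to 0.38, above 0 in 6 of 6 pairs) and a nuclear median of 0.10 (-0.10 to 0.33, above 0 in 5 of 6). With TMM scaling these were 0.17 (5 of 6) and -0.03 (3 of 6), so the nuclear direction turned. No member passed the 1.5-fold rule in all pairs, where 5.05% of 5839 genes were called higher and 0.839% lower. At 50 IU/mL the mitochondrial share was 4.38% with IL-2v and 3.37% with IL-2 at day 3, 3.68% and 2.91% at day 5, and 4.85% and 3.83% at day 10. The log2 difference at day 3, 0.38, was 0.24 in cells with at most 5% mitochondrial UMIs and 0.62 in non-cycling cells, and at days 5 and 10 those settings gave 0.24 to 0.46. At 5 IU/mL the shares were 4.28% and 4.29% at day 3, 4.08% and 4.27% at day 5, and 4.17% and 3.65% at day 10, so at days 3 and 5 the share was not higher with IL-2v although the median over members was above 0 (0.04 and 0.11).

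IL-15 against IL-2 gave a mitochondrial median of 0.14 (-0.15 to 0.70, above 0 in 4 of 6 pairs). The nuclear median was -0.04 (-0.32 to 0.16), or 0.05 with totals that leave out ribosomal protein and mitochondrial genes. At 50 IU/mL the mitochondrial share differed by 0.41, 0.69 and -0.12 on the log2 scale at days 3, 5 and 10. At 5 IU/mL it differed by 0.08, -0.07 and -0.02. The 1.5-fold rule called 0 members (1.42% of genes higher, 3.45% lower). Without day 3 it called 2 members and without day 5 it called 1, where the share of all genes was not counted. IL-2v against IL-15 gave 0.13 for both groups, where the mitochondrial median was -0.03 in cells with at most 5% mitochondrial UMIs and -0.04 without day 10. The pairs ran from -0.06 to 0.50 for nuclear members (above 0 in 5 of 6). For mitochondrial members they ran from -0.39 to 0.38 (4 of 6), with the lowest at 50 IU/mL, day 5. This comparison called 2 members higher, where 7.75% of genes were called higher and 2.07% lower. These were mt-Nd6 (0.69) and Ndufab1 (0.63), the mitochondrial acyl carrier protein that is also part of complex I. Ndufab1 measured 128 and 183 CPM with IL-2v at 5 and 50 IU/mL at day 3, 94.6 and 128 CPM at day 5, and 142 and 135 CPM at day 10. With IL-15 it measured 112 and 118 CPM, 89.1 and 82.8 CPM, and 91.2 and 86.6 CPM in the same order. The IL-2v library was higher in each of the 6 pairs, by little at 5 IU/mL, day 5. Without day 3 the count of members called was 4, without day 10 it was 1, and among non-cycling cells it was 0. The share of all genes called in these settings was not counted.

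Going from 5 to 50 IU/mL of IL-2, the nuclear median was 0.06 (above 0 in 3 of 3 days, but in 1 of 3 with TMM scaling), and 2 of 79 nuclear members were called higher and 1 lower, smaller shares than the 9.12% of genes called higher and 7.42% lower. The count of members called rose under several alternative settings, which are given at the end. Ndufv3 rose by 1.39 (0.16 to 1.60): 598 and 669 CPM at 5 and 50 IU/mL at day 3, 217 and 662 CPM at day 5, and 228 and 598 CPM at day 10. At 50 IU/mL it thus stayed near its day 3 level, while at 5 IU/mL it lay nearer the naive value of 176 CPM by day 5. IL-2v had the opposite order at day 3, with 599 and 536 CPM, and the same order at day 5 (452 and 580 CPM) and day 10 (244 and 343 CPM; median 0.36). IL-15 had the same order as IL-2 on each day, with 506 and 537 CPM at day 3, 206 and 328 CPM at day 5 and 154 and 338 CPM at day 10 (median 0.67). Ndufv3 was the 1 member called for IL-15 dose, where 2.44% of genes were called higher and 0.579% lower. Without day 3 there were 5, and the share of all genes called in that setting was not counted.

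Uqcrq, a small subunit of complex III (chromosome 11, 53427922 to 53430831, minus strand), rose by 0.89 (0.41 to 1.98) with IL-2 dose. It measured 252 and 466 CPM at day 3, 181 and 241 CPM at day 5 and 145 and 575 CPM at day 10, so the gap was widest at day 10. Cox7a2l, a complex IV member by its symbol (chromosome 17, 83501918 to 83517330, minus strand), fell by 0.70 (-1.0 to -0.32). It went from 409 to 327 CPM, from 554 to 341 CPM and from 634 to 316 CPM at days 3, 5 and 10: it climbed with the day at 5 IU/mL and stayed at 316 to 341 CPM at 50 IU/mL. Uqcrh was lower at 50 IU/mL on each day (609 and 412, 1102 and 534, 789 and 605 CPM; median -0.56), just short of the 1.5-fold rule. Cox6a1 was higher on each day (0.53), also short of it. Ndufa4 had a median of -0.52 but was higher at 50 IU/mL at day 3 (213 and 234 CPM). IL-2v dose called 0 members, where 5.26% of genes were called higher and 2.76% lower, with medians of -0.02 for nuclear and 0.06 for mitochondrial members, the latter -0.05 with TMM scaling. With only 2 of the 3 days the rule is easier to meet: for IL-2 dose 8 members were called without day 3, without day 5 or without day 10, and for IL-2v dose 3, 1 and 1. The share of all genes called over 2 days was not counted, so these counts have no background beside them.

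**Figure D4:**
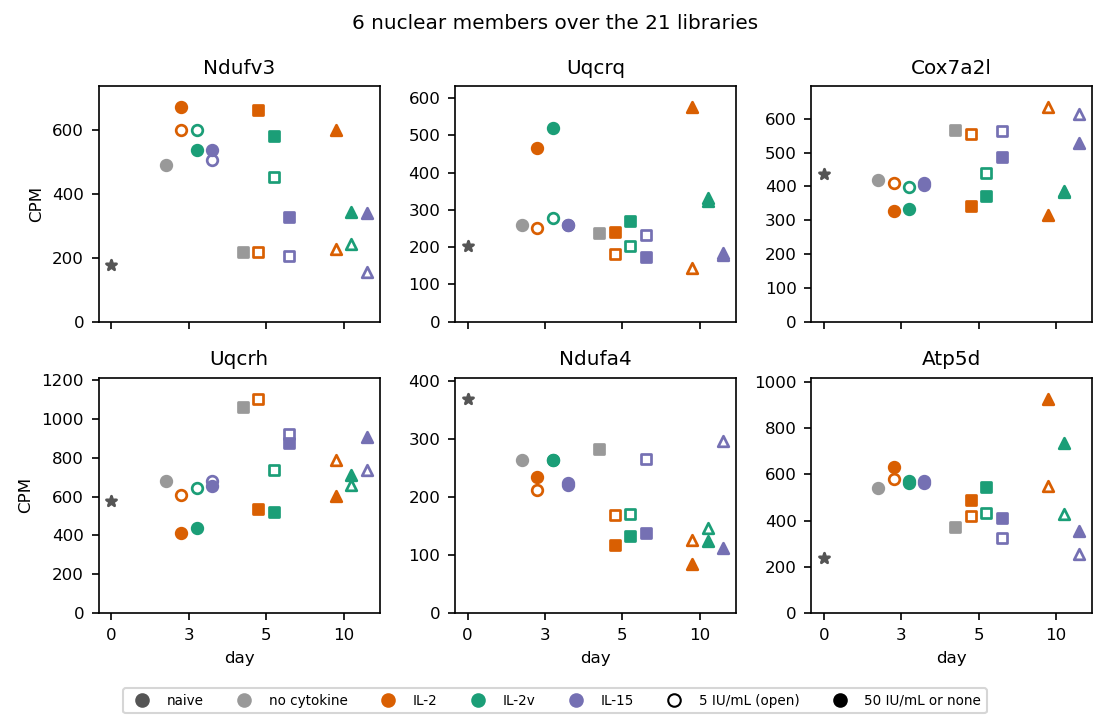
CPM of Ndufv3, Uqcrq, Cox7a2l, Uqcrh, Ndufa4 and Atp5d (y axes, CPM) by day of culture (x axis, days), 1 point per library, with colour for the cytokine and open or filled markers for 5 or 50 IU/mL. Ndufv3 and Atp5d rise from naive cells at 176 and 238 CPM, Ndufa4 lies below its naive 369 CPM in all later libraries, and the 2 IL-2 doses part at day 10 for Uqcrq with 145 and 575 CPM.

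The mitochondrial members were lower at the higher IL-2 dose at days 3 and 5 and higher at day 10. Their median difference was -0.28 at day 3, -0.40 at day 5 and 0.18 at day 10. The mitochondrial share of UMIs differed by -0.35 on the log2 scale at day 3 and -0.56 at day 5. At day 10 it differed by 0.07, which turned to -0.07 in cells with at most 5% mitochondrial UMIs (3.13% and 3.28%). Limited to such cells the share differed by -0.25 and -0.51 at days 3 and 5, and among non-cycling cells by -0.32 and -0.50. Median UMIs per cell were 4078 and 4436 at 5 and 50 IU/mL at day 3, and 3942 and 3016 at day 5. The part of this depth difference in the shares was not tested. T cell markers summed to 3806 and 2238 CPM at 5 and 50 IU/mL at day 3, 4339 and 2952 at day 5, and 3882 and 2927 at day 10. Cycling markers summed to 1103 and 1050, 324 and 1195, and 280 and 98.5 CPM in the same order. The part of the T cell markers was not tested either. 0 mitochondrial members passed the 1.5-fold rule over all 3 days; mt-Nd6 had the highest median, 1.08 (-0.04 to 1.56).

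From day 3 to day 5, at equal cytokine and dose, 46 of 79 nuclear members were below in all 6 pairs, as were 27.0% of the 5912 genes assessed. By the 1.5-fold rule 7 fell and 0 rose, a share near that of all genes, of which 8.41% were called lower and 2.3% higher. The nuclear median was -0.33 (-0.35 to -0.24), and the median of all genes assessed was -0.10. With TMM scaling it was -0.24, and 4 members of either genome were called in place of 8. The 7 were Ndufv1 (-0.81), the subunit that takes electrons from NADH, Cyc1 (-0.78), the cytochrome c1 of complex III, Uqcrc1 (-0.78) and Uqcr10 (-0.66) of the same complex, Atp5b (-0.67), Ndufb8 (-0.60) and Ndufs8 (-0.59). Ndufv1 ranged from 72.3 to 99.6 CPM (median 80.4) at day 3 and from 39.0 to 58.8 CPM (47.2) at day 5, without overlap. Cyc1 ranged from 105 to 166 CPM (118) and then from 57.0 to 101 CPM (73.2), also without overlap, and Atp5b from 674 to 1028 CPM (747) and then from 366 to 686 CPM (460), where the ranges overlapped. These ranges take in the libraries without cytokine. In all, 21 of 79 nuclear members (26.6%) had all 7 day 5 libraries below all 7 of day 3, as had 4.21% of genes, and 0 had them above, as had 133 of 5912 genes.

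Uqcrh (0.40), Cox7a2l (0.21) and Cox7b (0.13, with a lowest pair of 0.00668) were above in 6 of 6 pairs, below the 1.5-fold rule. These 3 of 79 nuclear members are a smaller share than the 12.5% of genes above in all pairs. Uqcrh, whose window is printed above, measured 579 CPM in naive cells, 412 to 682 CPM (median 645) at day 3 and 519 to 1102 CPM (874) at day 5. The mitochondrial ribosome had 10 of 73 genes lower and 0 higher (median -0.31) and the TCA cycle 3 of 16 lower and 0 higher (-0.27). The mitochondrial members had a median of -0.06, which was 0.05 with TMM scaling, and 1, mt-Atp8, rose (1.11). This gene shares bases with mt-Atp6, and how UMIs were divided between them was not tested.

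From day 5 to day 10 no nuclear member was called, where 0.599% of genes were called higher and 4.44% lower, and the nuclear median was 0.06 (above 0 in 5 of 6 pairs). TMM scaling moved the median of all genes by 0.20 here, and the nuclear median to 0.33. Of the mitochondrial members 4 fell: mt-Nd6 (-1.79), mt-Atp8 (-1.46), mt-Nd5 (-0.84) and mt-Nd4l (-0.77). mt-Atp8 and mt-Nd4l share bases with mt-Atp6 and mt-Nd4, which are not among the 4. How UMIs were divided between these overlapping genes was not tested. The mitochondrial median was -0.15, but it ran from -0.63 to 0.20 and was above 0 in 2 of 6 pairs. The mitochondrial share of UMIs was higher at day 10 in 3 of 6 pairs, going from 2.91% to 3.83% with IL-2 and from 3.68% to 4.85% with IL-2v at 50 IU/mL, and from 4.08% to 4.17% with IL-2v at 5 IU/mL.

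The mitochondrial members also changed in their proportions to each other. Over the 21 libraries, the range of log2(CPM + 1) had a median of 1.42 for mitochondrial members (0.89 to 3.41) and 1.07 for the 79 nuclear members (0.48 to 2.11), against 1.34 for all genes that averaged 20 CPM or more. mt-Nd6 (3.41), mt-Atp8 (3.23) and mt-Nd4l (2.44) varied most. mt-Nd6 measured 33.0 CPM in naive cells, 120 to 192 CPM (median 158) at day 3, 31.6 to 254 CPM (128) at day 5 and 22.9 to 59.9 CPM (41.6) at day 10. The highest value was that of IL-2 at 50 IU/mL, day 5 (254 CPM, 95% Poisson interval 244 to 263), where IL-2 at 5 IU/mL had 85.2 CPM.

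mt-Atp8 measured 210 CPM in naive cells, 166 to 262 CPM (median 201) at day 3, 249 to 485 CPM (390) at day 5 and 50.6 to 303 CPM (150) at day 10. mt-Atp6, whose start lies inside mt-Atp8, did not follow it: 9058 CPM in naive cells, 3853 to 6537 CPM (5924), 3731 to 7107 CPM (6765) and 6512 to 9410 CPM (7364). How UMIs were divided between these overlapping genes was not tested, so the values are not taken as separate messenger levels. mt-Nd4l, a small membrane subunit of complex I, measured 364 CPM in naive cells, 342 to 489 CPM (423), 307 to 534 CPM (425) and 97.8 to 306 CPM (256). At day 10 all 6 libraries were below naive cells for mt-Nd4l. This gene shares 7 bases with mt-Nd4, and how UMIs were divided between them was not tested either.

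The balance between mt-Co1, the catalytic subunit of complex IV, and mt-Atp6 differed between days. Their UMI ratio, compared between libraries and not as levels of 2 genes, was 0.804 in naive cells, 1.62 to 2.58 (median 1.84) at day 3, 1.34 to 2.37 (1.46) at day 5 and 0.822 to 1.11 (1.01) at day 10. The highest values at days 3 and 5 were both those of IL-2 at 50 IU/mL. mt-Co1 measured 7287 CPM in naive cells, 9930 to 12079 CPM (median 10914) at day 3, 8715 to 10348 CPM (9345) at day 5 and 6133 to 9249 CPM (7326) at day 10. Days 3 and 10 did not overlap with each other in this ratio, nor did days 5 and 10, and naive cells lay below all 20 other libraries. Days 3 and 5 did overlap. Ratios of other mitochondrial members were not computed, so how many would part the days is not known. Cells with at most 5% mitochondrial UMIs gave the same extremes (0.805 to 2.72).

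Among the other complex I subunits, mt-Nd1 measured 2231 CPM in naive cells, 2625 to 3932 CPM at day 3, 1556 to 3182 CPM at day 5 and 1682 to 2992 CPM at day 10. mt-Nd5 measured 443 CPM, then 538 to 670, 429 to 851 and 307 to 460 CPM. For mt-Nd1, mt-Nd5, mt-Nd6 and mt-Co1 all 7 day 3 libraries lay above naive cells. The share of all genes with naive cells outside the range of a later day was not counted. mt-Nd2 measured 2353 CPM, then 2086 to 2523, 1915 to 3168 and 1413 to 1968 CPM, so day 10 lay below naive cells. mt-Nd3 (987 CPM, then 655 to 1113, 566 to 1367 and 512 to 1707 CPM) and mt-Nd4 (2023 CPM, then 1525 to 2342, 1124 to 2114 and 1737 to 2178 CPM) held naive cells within the range of each later day. For complex IV, mt-Co2 measured 6153 CPM in naive cells, then 4724 to 7019, 4363 to 7080 and 5308 to 8098 CPM, and mt-Co3 7310 CPM, then 4627 to 7728, 3387 to 7652 and 5677 to 9672 CPM. mt-Cytb, the cytochrome b of complex III, measured 4067 CPM in naive cells and 2322 to 4377 CPM at day 3, but at most 3210 CPM at day 5 and 3633 CPM at day 10, below naive cells in all 13 of those libraries.

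**Figure D5:**
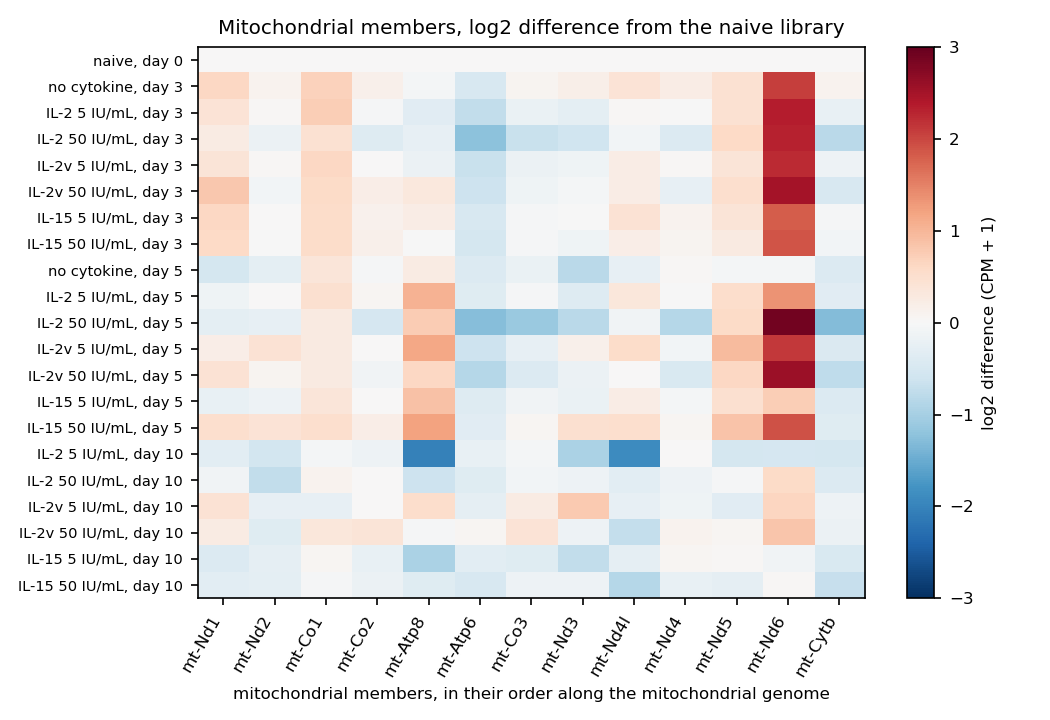
Log2 difference from naive cells of log2(CPM + 1) (colour scale, log2) for the 13 mitochondrial genes in their order along mitochondrial DNA (columns) in the 21 libraries (rows). mt-Nd6 is above naive cells in all 7 day 3 libraries, and mt-Cytb lies below naive cells in all 13 libraries of days 5 and 10.

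Among nuclear members with a mean of at least 20 CPM, the widest ranges over the libraries were those of Ndufv3 (2.11), Ndufa4 (2.11), Uqcrq (1.98), Atp5d (1.95) and Atp5b (1.55). The narrowest were Ndufa7 (0.48), Ndufb3 (0.55), Atp5h (0.58), Ndufb5 (0.61) and Uqcrc2 (0.64). Ndufa7, an accessory complex I subunit, kept to 231 to 323 CPM in all 21 libraries. Atp5d spanned 255 to 927 CPM at day 10 alone.

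The 5 nuclear members below 20 CPM on average are forms known from muscle, lung, testis or hypoxic cells. Cox6b2, the testis form, measured 0.129 to 19.1 CPM (median 3.49) and Cox7a1, the heart and muscle form, 0.172 to 18.7 CPM (3.59). Cox6a2 measured 0.108 to 17.1 CPM (2.80) with naive cells lowest, and Cox4i2 0 to 2.97 CPM (0.183). From naive cells to day 3 without cytokine Cox6b2 went from 1.19 to 16.8 CPM, Cox7a1 from 0.379 to 7.01 CPM and Cox6a2 from 0.108 to 3.06 CPM, differences of 3.02, 2.54 and 1.87 in log2(CPM + 1) that were larger than that of Ndufv3 but at levels below the 20 CPM limit. Ndufa4l2 was at 0 in most libraries and at most 0.418 CPM. Their common forms were present throughout: Cox6a1 at 134 to 312 CPM, Cox6b1 at 270 to 445 CPM and Cox4i1 at 553 to 1029 CPM.

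Within libraries, the nuclear and mitochondrial shares of all UMIs differed little between dividing and other cells. Cells were thinned to 2000 UMIs each and called cycling if a UMI of Mki67 or Top2a was left; 57 to 393 cells per library had fewer UMIs and were left out. By that rule 1.74% of naive cells and up to 78% of cells (IL-2v at 50 IU/mL, day 3) were cycling, or 3.01% and 86.9% without thinning. The part of free RNA in these calls was not tested. The log2 difference of cycling from other cells had a median over libraries of 0.01 for the nuclear share (-0.08 to 0.39) and -0.02 for the mitochondrial share (-0.24 to 0.18). The value of 0.39 rests on 78 cycling naive cells. Ribosomal protein genes took a smaller share in cycling cells in every library, such as 32.1% against 39.2% with IL-2v at 5 IU/mL, day 10. Their part in these differences was not tested. Single members differed more. Cyc1 was higher in cycling cells in 20 of 21 libraries (median 0.45) and Uqcrc1 in 19 (0.32). Uqcrh was higher in 2 (median -0.34) and Cox7a2l in 2 (-0.27). They were not the members with the most even sign: Atp5g3, Ndufa2, Ndufb7, Sdhb and Uqcrq were higher in 21 of 21 libraries, and Ndufa6 and Ndufa7 in 1. Without cycling cells, Cyc1 at day 3 without cytokine lay below naive cells (-0.22, against 0.34 with all cells) and so did Uqcrq (-0.02, against 0.34). mt-Nd6 was higher in cycling cells in 18 libraries (0.18) and mt-Nd5 in 0 (-0.09). For none of these members was the share of all genes that differ in as many libraries counted. Across the cells of a library, the correlation of nuclear with mitochondrial share was -0.29 to 0.03 (median -0.14, over 21 libraries); both shares have the cell's total as their divisor.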

How the data were processed

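The authors deposited 21 tables of raw UMI counts (genes by cells), 1 per library, in mouse genome build mm10; Cell Ranger and Seurat 4.0.1 and 3.0.2 are named in the submitters' processing notes, with no role given. How the authors filtered cells is not given in the sources used here. Here 2 barcodes were removed (under 1000 UMIs, under 500 genes or over 10% mitochondrial UMIs), which left 106456 cells; no doublet caller was run, and cells above 2 times their library's median UMIs were left out as an alternative. Counts were summed per library, scaled to CPM and compared as log2(CPM + 1). With 1 library per condition, no p-value was computed. The members, gene lists and comparisons were chosen with earlier results of these data known. Members named were all mitochondrial genes, the 3 highest and 3 lowest nuclear members of each comparison, those of widest and narrowest range, and isoform families; members called, and others such as Sdha and the complex IV forms, were added after their values were seen. The calling rule was run on simulated counts with planted changes and counting error only. Such counts hold no spread between cultures, so they do not show how the rule behaves with it. Alternatives covered scaling (TMM of edgeR 4.0.16, totals without ribosomal protein and mitochondrial genes), pseudocount, filters, cell choice and leaving out each day. Intervals are exact (Poisson or Clopper-Pearson, 95%). Promoter windows came from RefSeq tables (GRCm38.p6) and gene positions from GENCODE vM21 (GRCm38), and windows read along the gene's strand (the last 20 bases of 63 of 73 windows were found at a transcript's start). Python 3.11.15, numpy 2.4.6, scipy 1.17.1 and R 4.3.3 were used.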

Additional observations from a re-analysis of the deposited data

Results flagged for a closer look

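In 15 cases every pair of one group had a positive difference and every pair of the other a negative one, under the same contrast. These are 15 of 496 cases searched (62 members, those picked by the rule for named genes and all mitochondrial ones, in 8 comparisons of groups), or 3.02%. Over all 92 members with a mean of at least 20 CPM it was 22 of 736 cases (2.99%), and over all genes at that level 1.92%. Each group has 3 pairs, none of these differences was tested, and the sign of a pair near 0 is not told from counting error; the values are differences of the medians on the log2 scale, the first group's median less the second's where 2 cytokines are named, and the median at 5 IU/mL less that at 50 IU/mL otherwise, reported with their printed sign.

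For dose, IL-2 against IL-2v went opposite ways for Cox7b (0.301, from 0.11 for the first and -0.19 for the second) and Cox8a (0.227), both small subunits of complex IV. IL-2 against IL-15 did so for Ndufb9 (0.307), an accessory subunit of complex I, and mt-Co3 (-0.624, from -0.45 and 0.17), a core subunit of complex IV.

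For IL-2v against IL-2, the sign at 5 IU/mL was opposite to that at 50 IU/mL for Ndufv3 (0.415; 0.10 and -0.32), Cox7b (0.347) and Cox7a2l (-0.459; -0.34 and 0.12). For IL-15 against IL-2 it was so for 3 members of complex III, Uqcrq (1.14; 0.30 and -0.84), Uqcr10 (0.564) and Cyc1 (0.534), and for Ndufa12 (0.269) of complex I. At 50 IU/mL all 4 were lower with IL-15 on each day. For IL-2v against IL-15 it was so for Ndufs3 (-0.193) and mt-Nd2 (0.107).

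For day 5 against day 3, mt-Nd6 was lower at 5 IU/mL with each of the 3 cytokines (median -1.01, -1.10 to -0.11). At 50 IU/mL the values were 0.04 to 0.60 (median 0.05), of which 2 lie near 0, and the difference of the medians was -1.06. For day 10 against day 5, Uqcrh was lower at 5 IU/mL (-0.32) and higher at 50 IU/mL (0.18), a difference of -0.504.

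The smallest pair was within 0.05 of 0 for Uqcr10 (0.000106), Ndufv3 (0.00212), mt-Co3 (-0.00455 and 0.00898), Ndufb9 (0.0132), mt-Nd2 (0.0139), Ndufs3 (-0.0194), Cox7a2l (0.0211 and -0.0351), mt-Nd6 (0.0400) and Uqcrq (0.0412).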

How the results depend on the processing

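Of 388 values recomputed under an alternative, 59 moved by more than their own spread or by over 1.5 times in a count. A further 1, a median not near 0 whose pairs agreed in sign, changed direction. The spread was the standard deviation over pairs or libraries. For activation and for day 5 against day 3 without cytokine, with 1 pair each, it was counting error only. Those comparisons were thus counted as moved more readily, and the 59 are not a common measure. The cause was not tested. Medians near 0 in the comparisons between cytokines, of dose, of cytokine against none at day 3 and, for mitochondrial members, of day 5 against day 3 also changed sign within the spread of their pairs. The 1, under a limit that cuts on the mitochondrial share itself, is the mitochondrial median of activation, -0.11 in cells with at most 5% mitochondrial UMIs in place of 0.17. Without large cells, with TMM, with totals that leave out ribosomal protein and mitochondrial genes, with the mean of single cells and in non-cycling cells it was 0.18, 0.23, 0.11, 0.21 and 0.11. The nuclear median of activation was 0.56 in cells with at most 5% mitochondrial UMIs, 0.46 without large cells, 0.55 with TMM, 0.43 with the reduced totals, 0.46 with the mean of single cells, 0.46 with a pseudocount of 10 CPM, 0.48 over members with at least 20 CPM and 0.43 in non-cycling cells. From day 3 to day 5 without cytokine, the nuclear median was -0.22, -0.19, -0.0724, -0.17, -0.13, -0.17 and -0.12 under the same settings without the pseudocount, and the mitochondrial median -0.16, -0.44, -0.29, -0.39 and -0.49 under the first 5 and -0.43 in non-cycling cells. For cytokine against none the nuclear median at day 3 was -0.0373 (at most 5% mitochondrial UMIs), -0.13 (TMM) and -0.0785 (reduced totals), and at day 5 -0.24 (TMM) and -0.16 (reduced totals). TMM gave nuclear medians of -0.24 for day 5 against day 3 and 0.33 for day 10 against day 5. Without ribosomal protein genes in the totals, the median shares were 3.32% nuclear and 6.28% mitochondrial. The count of members called moved from 18 to 28 in non-cycling cells for cytokine against none at day 3, and from 0 to 1 for IL-2v against IL-2. It went from 8 to 4 with TMM for day 5 against day 3. For IL-2v against IL-15 it went from 2 to 1 with TMM, reduced totals or a pseudocount of 10 CPM, and to 0 in non-cycling cells. For IL-2 dose it went from 3 to 5 with each of 5 settings (at most 5% mitochondrial UMIs, no large cells, TMM, no 20 CPM limit on genes, non-cycling cells). For IL-2v dose it went from 0 to 1 without the 20 CPM limit on genes. Leaving out 1 day gave 2 (day 3) and 1 (day 5) for IL-15 against IL-2, 4 (day 3) and 1 (day 10) for IL-2v against IL-15, 8 for IL-2 dose without day 3, day 5 or day 10, 3, 1 and 1 for IL-2v dose in that order, and 5 (day 3) for IL-15 dose. For none of these changed settings was the share of all genes called counted.

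No replicate block was fitted, since each condition has 1 library and the labels give no replicate numbers. Libraries matched on day, dose or cytokine were compared pair by pair; a fit with those factors as blocks was not run. Differences between conditions therefore carry no estimate of the spread between cultures or animals, and library preparation and condition cannot be told apart. The smallest library held 10589950 UMIs, and counting error is small beside 1.5-fold differences above 20 CPM but not beside the smallest differences between pairs, while the 5 forms under 20 CPM rest on few. TMM shifted the median of all genes by 0.11 for day 5 against day 3 without cytokine, by -0.12 for cytokine against none at day 5, by 0.12 for day 5 against day 3 and by 0.20 for day 10 against day 5.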
